A study of Rattus norvegicus with 20 samples.

Results

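Epithelial cells of rat oral mucosa that had spent a period in mouse skin and were cultured again are described here against cells of vagina, esophagus, footpad and trachea that had gone through the same procedure. They make up 2 of the 20 arrays of the series and are set against the 8 arrays of the other recovered groups, each tissue with the same weight. All groups came from Sprague-Dawley rats of the line SD-Tg(CAG-EGFP), in which the CAG promoter drives the enhanced green fluorescent protein in every tissue, at postnatal day 200. Trypsin and EDTA released the cells from the tissues, and irradiated 3T3-J2 mouse fibroblasts served as feeder layer in culture. For the recovered groups, cultured cells were placed into the skin of newborn mice that was grafted onto nude mice, and the rat cells were later taken out of the grafts and cultured again. The groups called before transplantation were cultured from the tissue and never grafted. Cells positive for EGFP were sorted in all groups, a gate that removes feeder and host cells of the mouse and keeps every kind of rat cell. The design states cultures in duplicate but no number of animals or grafts, so every p-value below measures only the spread between 2 cultures of a group. Titles of the samples carry Roman numerals, and those of the recovered samples also codes, which the labels do not explain. These were not used. What they stand for cannot be told apart from the tissue or the stage where they differ.

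The oral mucosa is lined by a stratified squamous epithelium whose basal cells depend on the transcription factor Tp63, and whose upper layers in the non-keratinized lining make the keratins Krt4 and Krt13. Vimentin, the intermediate filament protein of mesenchymal cells, is also made by keratinocytes that spread or migrate in culture. Class II proteins of the major histocompatibility complex (MHC) belong to antigen-presenting cells, and epithelial cells can be induced by interferon-gamma to make them.

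Each value is the log2 signal of a probe set after RMA, the authors' normalization, so that a difference of 1 is a 2-fold difference. Each of 14506 gene symbols was represented by 1 probe set. Recovered duplicates correlated with r between 0.9957 and 0.9962 across probe sets, with 0.9962 for oral mucosa. The label of the cells was checked against markers. Tp63 was at 10.05 and 10.05 in recovered oral mucosa cells, against 9.12 to 9.85 with a median of 9.54 in the other recovered cells, and Krt14, the basal keratin, was at 13.08 and 13.13, against 13.11 to 13.36. The mean of 7 measured epithelial markers was 10.78 and 10.77 in recovered oral mucosa cells and lay between 10.73 and 11.04 in the 8 other arrays. Ptprc, the pan-leukocyte marker CD45, was at 3.63 and 3.27, against 3.21 to 3.54, which is within the lowest 40% of all probe sets (under 4.77). Krt5 had no probe set with a single symbol and was not analysed here.

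Relative to the mean of the 4 other tissues, 176 symbols were higher (1.21% of those tested) and 156 were lower (1.08%) in recovered oral mucosa cells. A symbol was counted, here and below, where limma gave it an adjusted p under 0.05 and its fold was over 2. The fold set these counts, because all 332 symbols over 2-fold also passed the adjusted p. The median difference of all symbols was 0.05. With each array centered on its median it was −0.05, and the split became 140 higher and 211 lower. Both oral mucosa arrays lay above all 8 others for 141 of the 176 higher symbols and below all 8 for 119 of the 156 lower ones. Over all symbols, without a test, 13.2% lay above and 9.78% below all 8. Past the test against each of the 4 tissues taken singly, in comparisons that share the 2 oral mucosa arrays, were 51 symbols higher (0.352%) and 39 lower (0.269%). With centered arrays these were 41 and 53. Taken singly, 1.99% of symbols were higher and 1.65% lower than in vagina, 2.03% and 1.9% than in esophagus, 2.3% and 3.24% than in footpad, and 1.85% and 2.31% than in trachea.

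**Figure D1:**
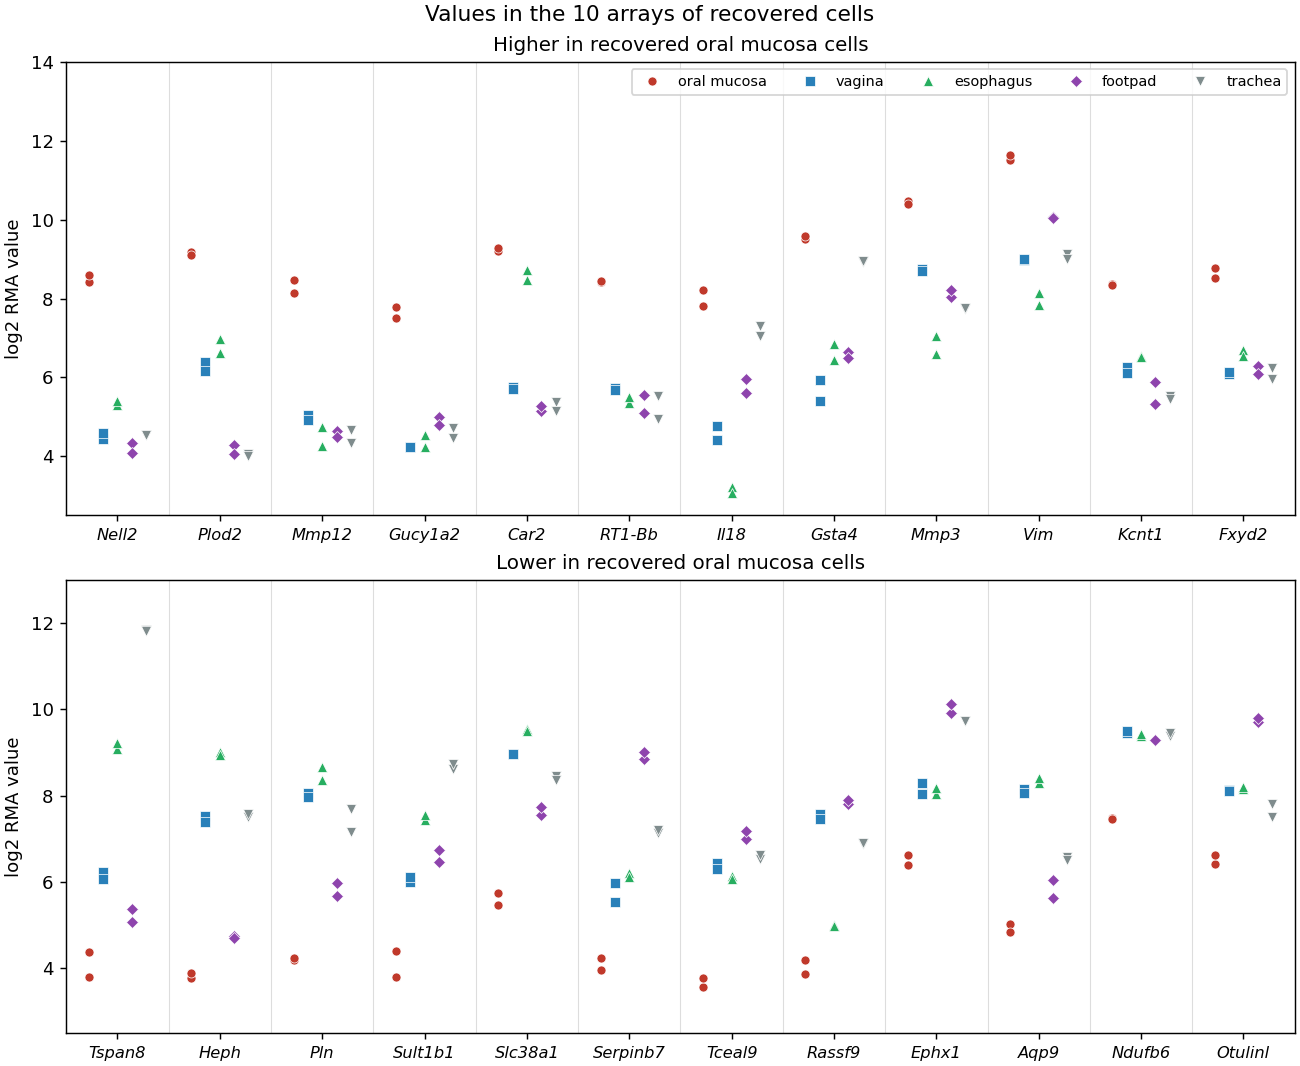
Log2 RMA values (vertical axis) of the 12 higher and 12 lower genes with the widest difference, in the 10 arrays of recovered cells, with 1 marker and color per tissue and 1 point per array. The 24 genes were picked only among those with both oral mucosa points outside the range of the 8 other points, so this separation follows from the choice. For Ndufb6 the 8 others lie together between 9.29 and 9.50, while for Tspan8 they spread from 5.07 to 11.83.

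Among the genes with the widest differences upward were genes of the extracellular space. Nell2, a secreted glycoprotein with EGF-like repeats, was at 8.42 and 8.60 in recovered oral mucosa cells, and at 4.07 to 5.39 (median 4.53) in the other recovered cells. The difference was 3.87 ± 0.11 (SE), or 14.6-fold on the RMA scale. The median of the other arrays was under 4.77 for this gene and for Gucy1a2, Mmp12, Mmp10, Zeb1, Zeb2, RT1-Ba, Gbp5 and Cysltr1, and whether the other tissues lay above background for them was not tested. Plod2, the lysyl hydroxylase of collagen telopeptides, was at 9.18 and 9.11, against 4.01 to 6.97 (median 5.23), a difference of 3.82 ± 0.13. For both genes the values of the 2 groups were separated by more than 2 log2 units. Esophagus came nearest to oral mucosa, with oral mucosa 3.17 higher for Nell2 and 2.36 higher for Plod2.

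Genes of signaling and ion handling stood beside them. Gucy1a2, a subunit of the soluble guanylate cyclase that makes cyclic GMP in answer to nitric oxide, was at 7.52 and 7.79 in recovered oral mucosa cells, against 4.23 to 4.99 (median 4.50) in the others, a difference of 3.13 ± 0.10. The other 4 tissues were alike in this gene, with differences of 2.77 to 3.42. Of 40 measured genes of cyclic GMP and nitric oxide signaling, Gucy1a2 alone was higher (2.5%, against 1.21% of all symbols). Nppb, a natriuretic peptide that raises cyclic GMP, was the only lower member, against 1.08% of all symbols. It differed by −1.24 ± 0.17 from the mean, but was 0.56 above footpad. The partner subunit Gucy1b1 differed by 0.26, which did not pass the fold. The carbonic anhydrase Car2 was at 9.21 and 9.28, against 5.16 to 8.72 (median 5.54), with esophagus only 0.65 below oral mucosa. The sodium-activated potassium channel Kcnt1 was 2.41 ± 0.11 higher, and Fxyd2, a regulator of the sodium pump, 2.40 ± 0.12. Il18, a cytokine of the interleukin-1 family, was at 7.82 and 8.21, against 3.07 to 7.31 (median 5.18), and the distance was 4.87 to esophagus but 0.83 to trachea. Among the 12 higher genes in the plot of single values, chosen for the size of their difference, the largest adjusted p was 9.07e-08 (limma).

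Genes with the widest differences downward included membrane and transport proteins. Tspan8, a tetraspanin of glandular and simple epithelia, was at 4.38 and 3.80 in recovered oral mucosa cells and at 5.07 to 11.83 (median 7.65) in the other recovered cells, a difference of −3.997 ± 0.15. Oral mucosa lay 7.74 below trachea, where Tspan8 is highest, but 1.13 below footpad. Heph, the ferroxidase hephaestin, was at 3.78 and 3.90, against 4.70 to 9.01 (median 7.51), and Pln, the inhibitor of the calcium pump of the sarcoplasmic reticulum, at 4.18 and 4.24, against 5.68 to 8.66 (median 7.83). Both oral mucosa arrays of these 3 genes, and of Tceal9, Sult1b1, Serpinb7 and Rassf9 below, were under the level of 4.77 under which 40% of all probe sets lie, and without detection calls whether they were above background was not tested. Slc38a1, a sodium-coupled transporter of neutral amino acids, was at 5.74 and 5.47, against 7.55 to 9.54 (median 8.70), and was lower by 2.03 to 3.92 against every tissue. Tceal9, of the elongation factor A-like family, was at 3.56 and 3.78, against 6.08 to 7.18, with differences of −2.44 to −3.42.

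Enzymes of detoxification were also in this group. The sulfotransferase Sult1b1 differed by −3.11 ± 0.19 and the microsomal epoxide hydrolase Ephx1 by −2.50 ± 0.12. The protease inhibitor Serpinb7 differed by −2.89 ± 0.13, Rassf9, of the Ras association domain family, by −2.79 ± 0.14, the aquaglyceroporin Aqp9 by −2.28 ± 0.14 and Otulinl, a relative of the deubiquitinase Otulin, by −1.91 ± 0.10. Ndufb6, an accessory subunit of mitochondrial complex I, had the most even gap, with 7.49 and 7.47 in recovered oral mucosa cells, against 9.29 to 9.50 in the others. Before transplantation Ndufb6 was at 7.87 and 7.55 in oral mucosa cells, against 7.46 to 8.02 in the others, so that the groups overlapped. The largest adjusted p of the 12 lower genes, chosen in the same way, was 5.8e-08 (limma).

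Some genes of the epithelial-mesenchymal transition, the program by which epithelial cells take on mesenchymal traits, were higher in recovered oral mucosa cells. Of 21 measured members 7 were higher and 0 lower, 33.3% of the list against 1.21% of all symbols, and 13 lay above all 8 other arrays. The list's median difference was 0.61, against 0.05 over all symbols. Vim was at 11.51 and 11.64, against 7.83 to 10.07 (median 8.998), a difference of 2.56 ± 0.12 (adjusted p = 7.16e-09, limma). Footpad came nearest, with oral mucosa 1.52 higher, and esophagus was farthest, with oral mucosa 3.60 higher. The transcription factor Zeb1, a repressor of E-cadherin, was at 6.61 and 6.43, against 4.10 to 4.50, and the difference was alike against every tissue, between 2.09 and 2.22.

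Its relative Zeb2 was 1.24 ± 0.13 higher and the factor Twist1 1.10 ± 0.15 higher, both past the test against each tissue. The galectin Lgals1 was 1.60 ± 0.13 higher and the fibronectin receptor subunit Itga5 1.17 ± 0.11 higher. Members that did not pass the fold included the factors Snai1 (0.29) and Snai2 (−0.14), the fibronectin gene Fn1 (−0.14) and N-cadherin, Cdh2 (0.02). E-cadherin, Cdh1, was at 9.68 and 9.69 in recovered oral mucosa cells, against 9.86 to 10.55, a difference of −0.58 ± 0.06 that also lay under the fold. The epithelial adhesion molecule Epcam was at 8.27 and 8.24, against 8.95 to 10.78, and was lower by 1.54 on the log2 scale.

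Markers of other cell types were measured beside these genes. The mean of 8 fibroblast markers was 5.29 and 5.27 in recovered oral mucosa cells, against 4.90 to 5.10 in the other recovered cells, and 0 of the 8 passed limma's test with the fold, with 3 at an unadjusted p under 0.05. Dcn and Lum were under 4.77 in both oral mucosa arrays and in the 8 others (highest 4.24 and 2.73). Thy1, at 5.36 and 5.60 against 4.55 to 5.20, and Col1a1 lay above all 8 others. The remaining markers of the 8 overlapped with the other tissues. In a longer list of 19 fibroblast genes Sparc, a matrix glycoprotein, was higher (10.16 and 10.41, against 6.41 to 9.78), 0 were lower, and the median difference was 0.21. Col1a1 was at 7.22 and 7.16, against 6.66 to 6.92. The mean of 4 muscle markers was 5.68 and 5.58, against 5.20 to 5.39, and that of 6 leukocyte markers 4.34 and 4.33, against 4.18 to 4.50, with 0 members past the test in either and 3 and 0 at an unadjusted p under 0.05. The part of such cells in the levels of the transition genes was not tested, and in bulk RNA fewer cells of a type and less RNA per cell cannot be told apart.

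A minority of the genes for matrix proteases differed. Of 27 measured matrix proteases, plasminogen activators and their inhibitors, 5 were higher (18.5%, against 1.21% of all symbols) and 1 was lower, with a median difference of 0.28. Mmp12, the macrophage elastase, was at 8.46 and 8.14, against 4.26 to 5.04 (median 4.66), a difference of 3.67 ± 0.21. The stromelysin Mmp3 was at 10.48 and 10.40, against 6.58 to 8.74 (median 7.89). For both, the groups did not overlap and oral mucosa was past the test against each tissue. Mmp10, the other stromelysin, was at 6.30 and 5.45, against 3.31 to 4.04, with the widest gap between duplicates of these genes. The tissue plasminogen activator Plat was 1.46 ± 0.12 higher and Mmp19 1.22 ± 0.09. The inhibitor Timp2 was lower (−1.05 ± 0.09), and without trachea its difference was −0.67. The gelatinases Mmp2 (0.18) and Mmp9 (0.73) did not pass the fold.

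Among 40 genes of BMP and TGF-beta signaling 3 were higher and 2 lower, 12.5% against 2.29% of all symbols in either direction. The ligand Tgfb3 was at 7.74 and 8.04, against 4.60 to 6.75 (median 5.67), a difference of 2.24 ± 0.14. Ltbp2, of the family of latent TGF-beta binding proteins, was at 7.57 and 7.77, against 5.37 to 5.77, and was 2.04 to 2.20 higher than each tissue. The secreted glycoprotein Fstl1 was 1.71 ± 0.09 higher. The antagonist follistatin, Fst, was lower by 1.10 on the log2 scale, with oral mucosa 2.53 below vagina but 0.20 above footpad, and the ligand Bmp3 was lower by 1.26, or 0.78 without trachea. In the Wnt list 1 of 44 members was higher (2.27%, against 1.21% of all symbols), the ligand Wnt5a (1.33 ± 0.09), with oral mucosa 3.14 above footpad and 0.04 above esophagus, and without footpad it was 0.72. In the Notch list 1 of 28 was higher, the feedback inhibitor Nrarp (1.02 ± 0.08).

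**Figure D2:**
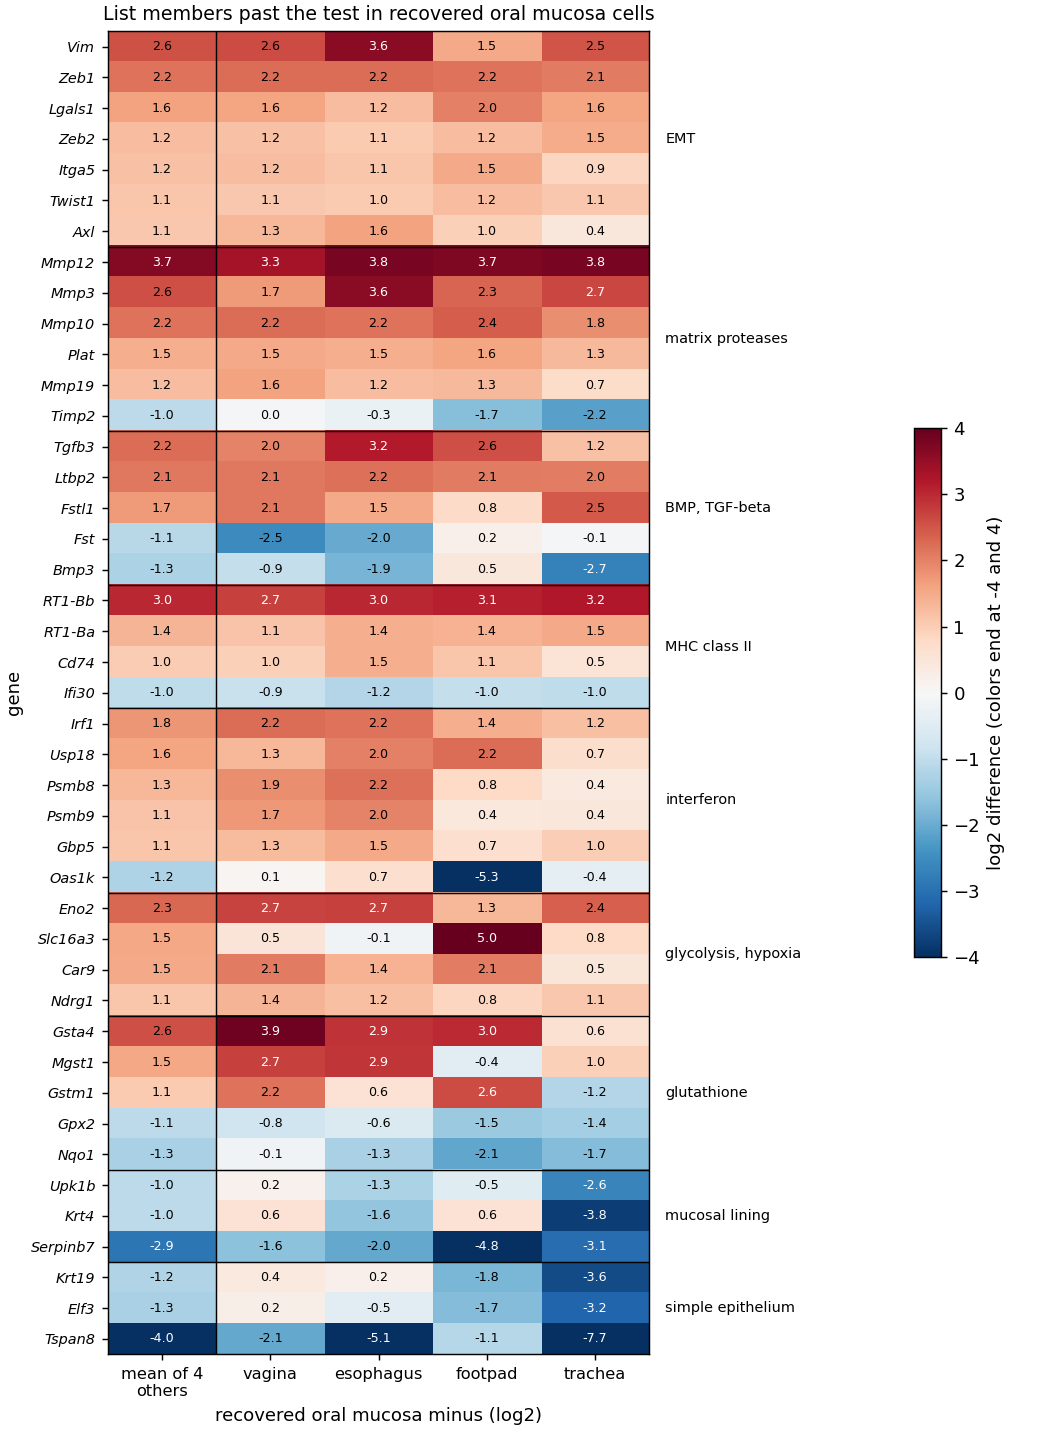
Log2 difference of recovered oral mucosa cells from the mean of the 4 other recovered tissues (first column) and from each of them (other columns), for the members of 9 gene lists that passed the test, with red for higher and blue for lower in oral mucosa. Rows of Zeb1, Ltbp2, Mmp12 and RT1-Bb have much the same color in all columns, while Oas1k and Slc16a3 stand out against footpad alone and Krt4 against trachea.

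Genes of MHC class II presentation differed in part. Of 17 measured members 3 were higher (17.6%) and 1 was lower, against 1.21% and 1.08% of all symbols, with a median difference of 0.21. RT1-Bb, the beta chain of the rat class II molecule RT1-B, was at 8.41 and 8.44 in recovered oral mucosa cells and at 4.94 to 5.73 (median 5.51) in the other recovered cells, a difference of 3.01 ± 0.17 (adjusted p = 3.7e-08, limma). RT1-Ba, its alpha chain, was at 5.70 and 5.65, against 4.02 to 4.78, a difference of 1.37 ± 0.14. Both chains passed the test against each of the 4 tissues. Cd74, the invariant chain that guides class II molecules to the endosome, was at 7.04 and 7.11, against 5.57 to 6.54, and its difference of 1.02 ± 0.09 was at the fold, falling to 0.92 with centered arrays.

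The chains of the second class II molecule, RT1-Da and RT1-Db1, differed by 0.43 and 0.54, and RT1-Da overlapped with the others (4.76 and 5.09, against 3.99 to 4.76). Ciita, the transactivator of class II genes, was at 5.35 and 5.31, against 4.84 to 5.37, with a difference of 0.21 ± 0.10 (adjusted p = 0.174, limma). Ifi30, a thiol reductase of antigen processing, was at 7.06 and 7.12, against 7.94 to 8.30, and its difference of −1.01 ± 0.08 was at the fold. Class II genes are close relatives of each other, and how the probes of 1 gene respond to transcripts of another was not tested.

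Class II promoters carry a conserved Y box, CCAAT, near the start of transcription. The bases upstream of the start are shown for both RT1-B chains, which were higher, and for RT1-Da, which did not pass the test, 5′ to 3′ on the gene's strand. Capitals mark CCAAT or its complement ATTGG. The windows, from RefSeq on GRCr8, are chr20:4604119-4604268 on the minus strand, chr20:4576907-4577056 on the plus strand and chr20:4515265-4515414 on the plus strand.
RT1-Bb: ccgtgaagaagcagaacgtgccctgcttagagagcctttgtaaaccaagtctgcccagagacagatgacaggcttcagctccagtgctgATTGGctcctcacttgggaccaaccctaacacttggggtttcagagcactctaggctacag
RT1-Ba: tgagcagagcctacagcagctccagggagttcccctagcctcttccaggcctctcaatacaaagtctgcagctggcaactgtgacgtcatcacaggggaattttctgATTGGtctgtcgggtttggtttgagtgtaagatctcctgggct
RT1-Da: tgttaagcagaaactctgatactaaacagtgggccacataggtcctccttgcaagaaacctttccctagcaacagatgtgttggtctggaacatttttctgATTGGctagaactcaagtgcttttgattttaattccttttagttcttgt
The word stood 61 bases upstream of the start in RT1-Bb, 43 in RT1-Ba and 49 in RT1-Da, on the complementary strand in all of them. Of the 17 genes 14 had a single promoter entry and were searched. Of these, 11 (78.6%) held the word on either strand within 250 bases upstream. Of 33469 rat promoter windows of the same length, counted without this limit to single entries, 34% held it. Cd74 and the 2 RT1-B chains held it and Ifi30 did not. The chain that did not pass the test held it too.

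Interferon-responsive genes also differed in part. Of 36 measured members 5 were higher (13.9%) and 1 was lower, against 1.21% and 1.08% of all symbols, with a median difference of 0.30. The transcription factor Irf1 was at 8.54 and 8.86, against 6.37 to 7.65 (median 6.92), and was 1.20 to 2.23 higher than each tissue. Usp18, a protease that removes the ubiquitin-like protein Isg15, was 1.57 ± 0.22 higher, and the immunoproteasome subunits Psmb8 and Psmb9 were 1.31 ± 0.12 and 1.15 ± 0.11 higher. The guanylate-binding protein Gbp5 was 1.10 ± 0.09 higher. Trachea came near for Usp18 (0.69 below oral mucosa) and Psmb8 (0.39 below), neither past the test against it. Psmb9 was only 0.42 above footpad and 0.44 above trachea. It lost the call without vagina (0.95) and without esophagus (0.86), and Gbp5 without esophagus (0.97). The antiviral effectors Mx1 (−0.07), Rsad2 (0.06) and Isg15 (−0.05) lay close to 0. Oas1k, which makes oligoadenylates, was lower against the mean (−1.23 ± 0.18), but 1 tissue decided this, since oral mucosa was 5.29 below footpad and without footpad the difference was 0.13.

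Among 41 chemokines and interleukins 2 were higher and 3 lower, against 1.21% and 1.08% of all symbols. Tnf was higher next to Il18 (6.41 and 5.97, against 4.92 to 5.50), with a difference of 1.00 ± 0.17 that was at the fold and fell below it with centered arrays (0.91). Il10 and the decoy receptor Il1r2 were lower by 1.09 and 1.41, both through footpad, and without it the differences were 0.16 and 0.0038. Il24 was lower by 1.01 on the log2 scale, with oral mucosa 0.15 below footpad.

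In 3 lists of epithelial differentiation the members that passed the test were all lower. In the list of mucosal lining genes 0 of 14 were higher and 3 lower, against 1.21% and 1.08% of all symbols, with a median difference of −0.07. Krt4 was at 5.21 and 5.46, against 4.70 to 9.16 (median 5.72), a difference of −1.05 ± 0.14 that was −0.14 without trachea. Krt13 was at 9.21 and 9.48, against 6.27 to 10.92 (median 9.64), and its difference of 0.28 ± 0.14 did not pass the test and was −0.63 without vagina. Upk1b, a uroplakin, was lower by 1.04 on the log2 scale, and by 0.52 without trachea. Serpinb7, described above, was the only one of the 3 below all 8 other arrays.

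Of 17 genes of simple epithelium 0 were higher and 3 lower, namely Tspan8, Krt19 and the ETS factor Elf3. For Krt19 (−1.20 ± 0.13) and Elf3 (−1.28 ± 0.12) oral mucosa was 3.57 and 3.19 below trachea, and without trachea the differences were −0.41 and −0.65. The basal keratin Krt15 was higher (9.27 and 9.61, against 5.84 to 10.95), although oral mucosa was 1.34 below footpad and the difference of 1.52 was 0.85, under the fold, without vagina. Among 14 genes of epidermal differentiation the crosslinking enzyme Tgm1 was lower, by 1.14. Its difference from footpad was only −0.08, and it lost the call without trachea (−0.91) and without esophagus (−0.98). Of the 5 transcription factors of the hair follicle that the study followed, the corepressor hairless, Hr, was higher at 9.11 and 9.15, against 5.98 to 8.93 (median 8.04), a difference of 1.35 ± 0.13 that was 0.82 without trachea. Lhx2 (0.41 ± 0.17) and Gata3 (0.85 ± 0.10) did not pass the fold, and both overlapped with the other tissues. Gata3 passed it without vagina (1.09) and without footpad (1.46).

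In metabolism, 4 of 30 genes of glycolysis and hypoxia were higher (13.3%) and 0 lower, against 1.21% and 1.08% of all symbols. The median difference was 0.38, and 17 members lay above all 8 other arrays, against 13.2% of all symbols. The enolase Eno2 was at 9.03 and 9.18, against 6.31 to 7.84 (median 6.53), a difference of 2.29 ± 0.09. The carbonic anhydrase Car9 was 1.51 ± 0.07 and Ndrg1 1.12 ± 0.08 higher, both hypoxia-inducible genes. For Car9 trachea came nearest, at 9.38 and 9.16, against 9.71 and 9.79 in oral mucosa. The lactate transporter Slc16a3 was 1.54 ± 0.14 higher, with oral mucosa 5.03 above footpad, and without footpad the difference was 0.38. Lactate dehydrogenase, Ldha (−0.19), and Hif1a (0.41) did not pass the fold.

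Of 31 genes of glutathione and oxidant response 3 were higher and 2 lower, against 1.21% and 1.08% of all symbols. Gsta4, a glutathione transferase for aldehydes from lipid peroxidation, was at 9.50 and 9.58, against 5.39 to 8.95 (median 6.57), with oral mucosa 3.88 above vagina and 0.60 above trachea. The relatives Mgst1 (1.53 ± 0.11) and Gstm1 (1.05 ± 0.09) were higher against the mean but overlapped with the others. The glutathione peroxidase Gpx2 was lower by 1.06 and the quinone reductase Nqo1 by 1.31 on the log2 scale. Nqo1, at 8.91 and 9.17, overlapped with vagina (9.20 and 9.13). Of the immediate early genes, Ier3 was lower against each tissue (9.90 and 9.95, against 10.98 to 11.87). The phosphatase Dusp1 was 1.02 ± 0.08 higher than the mean, a difference that lay at the fold. Dusp1, at 11.56 and 11.90, overlapped with footpad (11.55 and 11.66) and trachea (11.76 and 11.75).

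The same contrast before transplantation shows how far the recovered cells carried over differences of the first culture. The arrays of the 2 stages do not overlap, although 1 fit gave both contrasts. Before transplantation 329 symbols were higher (2.27%) and 271 lower (1.87%) in oral mucosa cells. Of the 176 symbols higher in recovered oral mucosa cells 33 were also higher before, which is 18.8% of the recovered and 10% of the earlier list, and 8 were lower. Of the 156 lower symbols 18 were also lower before (11.5% and 6.64%), and 15 were higher.

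Gucy1a2 was the gene whose smaller difference over both stages was largest. Before transplantation it was at 8.56 and 8.46 in oral mucosa cells, against 4.33 to 5.80 (median 5.45), a difference of 3.30, and the change of the contrast between stages was −0.17 ± 0.15 (adjusted p = 0.457, limma). Others higher at both stages were Nell2, Mmp12, Plod2, Gsta4, Mmp10, the cysteinyl leukotriene receptor Cysltr1 and the secreted leucine-rich protein Lgi2. Their recovered differences from the mean were 1.80 to 3.87 and the earlier ones 1.91 to 3.00. Before transplantation Mmp10, at 7.04 and 5.65 in oral mucosa cells, overlapped with footpad (6.47 and 6.80). The homeobox factor Nkx2-3 was at 7.73 and 7.75 in recovered oral mucosa cells, against 6.23 to 6.48, and before transplantation at 8.03 and 7.95, against 5.94 to 6.57. It was the only one of 43 measured oral, arch and regional transcription factors that was higher, and its groups were apart at both stages. Of 22 Hox genes only Hoxa5 passed the test, lower by 1.13 in recovered and by 1.31 in earlier oral mucosa cells. In recovered cells oral mucosa was 0.19 above trachea, and Hoxa5 lay under the fold without vagina (−0.89), without esophagus (−0.98) and without the second oral mucosa array (−0.97).

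Lower at both stages were Slc38a1 (−3.02 recovered and −2.50 before), Magoh of the exon junction complex (−1.53 and −1.43), the prostaglandin synthase Ptgs2 (−1.25 and −1.28), the growth factor Pdgfc (−1.23 and −1.86), Crip1, Rassf9, Tspan8 and Nppb. For Crip1, a small LIM domain protein, the recovered difference lay against trachea alone (−5.77) and was −0.16 without it. Recovered oral mucosa cells were not below footpad for Ptgs2 (6.46 and 6.67, against 6.41 and 5.92). The same held for Pdgfc (5.67 and 5.63, against 5.51 and 5.15) and for Nppb, which was 0.56 above footpad. Before transplantation oral mucosa cells lay above footpad for Tspan8 (6.78 and 6.60, against 3.31 and 3.19). At that stage Rassf9 (3.12 and 3.59) overlapped with esophagus (3.54 and 2.96). Ptgs2 also overlapped with esophagus then, and Crip1 with vagina.

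**Figure D3:**
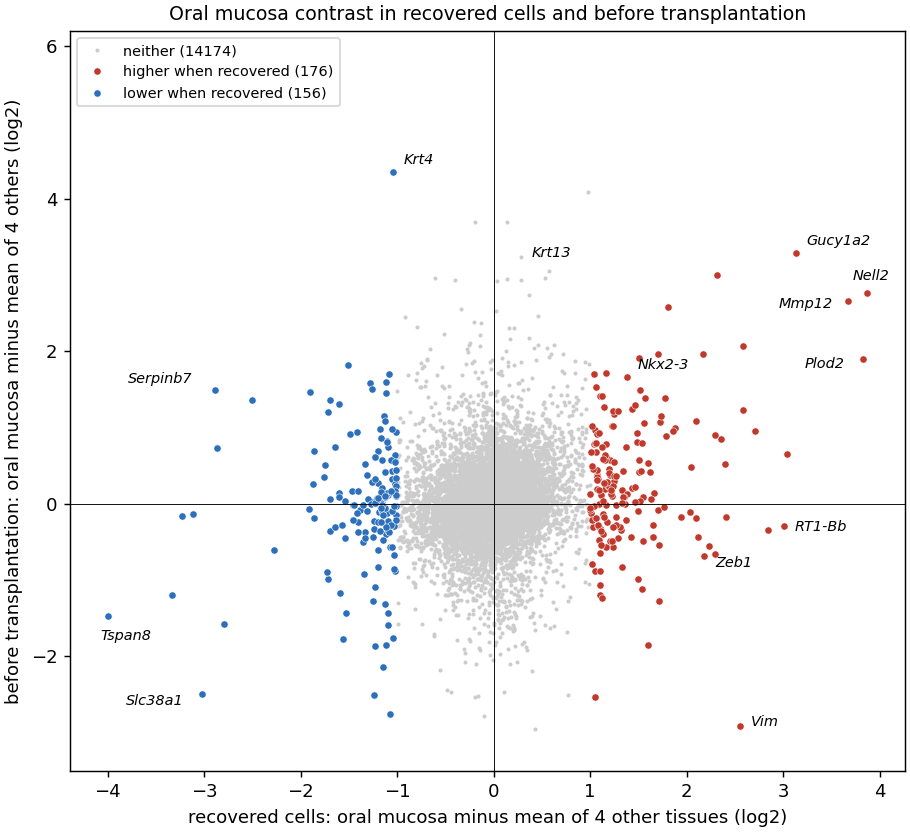
Oral mucosa minus the mean of the 4 other tissues, in log2 units, in recovered cells (horizontal axis) and before transplantation (vertical axis), 1 point per symbol, with the 176 higher and 156 lower symbols of the recovered contrast in color. Gucy1a2, Nell2 and Mmp12 lie at the upper right, Slc38a1 and Tspan8 at the lower left, Vim at the lower right with 2.56 recovered and −2.92 before, and Krt4 at the top left with −1.05 and 4.36.

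Most differences of the recovered cells were not those of the first culture. The contrast itself differed between stages, recovered minus before, for 381 symbols upward (2.63%) and 519 downward (3.58%), or for 309 and 697 with centered arrays. The difference for Vim changed by 5.47 ± 0.17 (adjusted p = 6.54e-10, limma). Vim was at 6.70 and 6.26 in oral mucosa cells before transplantation, against 7.06 to 10.89 (median 9.81), so that both arrays lay below all 8 others, whereas both recovered arrays lay above all 8. Of the transition list 10 members changed upward and 0 downward between stages, among them Lgals1 by 3.45 ± 0.18 and Zeb1 by 2.87 ± 0.18. Fibroblast markers moved the same way, with 9 of 19 upward and 0 downward. Of the 19, 6 were lower before transplantation in oral mucosa than in the other cells, against 1.87% of all symbols. Col1a1 was at 6.83 and 7.04 in oral mucosa cells before transplantation, against 6.74 to 9.40 (median 8.86). How much of the change in the transition genes goes with fibroblast markers in the earlier cultures of the other tissues was not tested.

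RT1-Bb changed by 3.30 ± 0.24 between stages, since it was at 4.64 and 5.35 in earlier oral mucosa cells, against 4.91 to 6.02. Il18 changed by 3.18 ± 0.22, and Igfbp3, which binds insulin-like growth factors, by 2.96 ± 0.18. In the other direction the mucosal lining list had 8 members downward and 1 upward of 14, against 3.58% and 2.63% of all symbols. Before transplantation Krt4 was at 11.90 and 12.01 in oral mucosa cells, against 4.91 to 10.85 (median 7.34), and its difference changed by −5.40 ± 0.20. Against the mean of the others, Ephx1, Otulinl, the chemokine Ppbp and the membrane protein Ly6d were also higher before transplantation and lower after it. Their changes were −3.06 to −3.86. Recovered oral mucosa cells lay above trachea for Ppbp (9.49 and 9.34, against 8.59 and 8.95).

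Most genes of cell division in the lists changed between stages. Of 40 genes of DNA replication and S phase 0 passed limma's test with the fold in recovered cells in either direction (19 had an unadjusted p under 0.05, 10 of them higher), with a median difference of 0.03, whereas before transplantation 27 were lower and 0 higher in oral mucosa cells, with a median of −1.21. Between stages 27 changed upward and 0 downward, against 2.63% and 3.58% of all symbols. Over all symbols 1.87% were lower and 2.27% higher before transplantation. Of 34 mitosis genes 0 passed in recovered cells (15 at an unadjusted p under 0.05), 25 were lower and 0 higher before, and 25 changed upward. In recovered cells the mean of the replication genes was 8.17 and 8.15 for oral mucosa, against 7.49 to 8.77, so that oral mucosa lay inside the range of the other tissues. Before transplantation it was 7.08 and 6.85, against 8.04 to 8.48, below all 8 others.

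**Figure D4:**
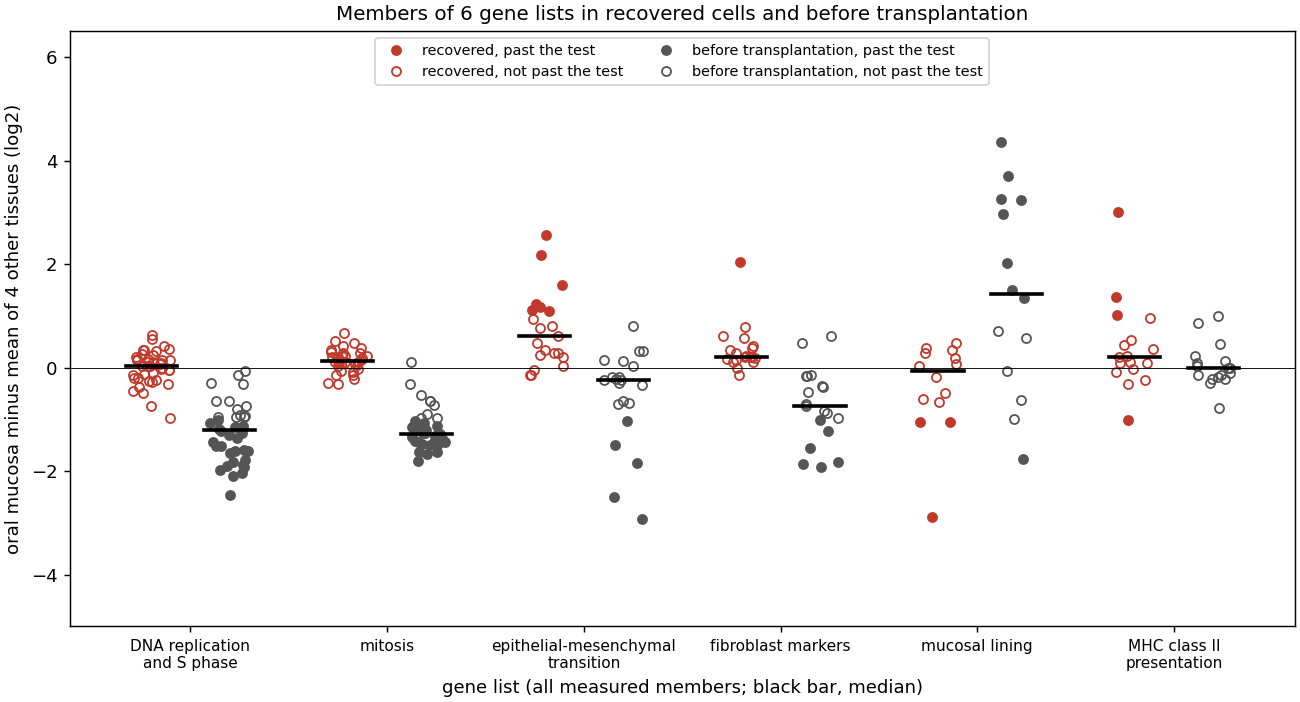
Oral mucosa minus the mean of the 4 other tissues in log2 units for every measured member of 6 gene lists, in recovered cells (red, left) and before transplantation (gray, right), with filled points for members past the test and a black bar at the median. Replication and mitosis genes lie around 0 in recovered cells and around medians of −1.21 and −1.28 before, and mucosal lining genes have a median of −0.07 recovered and 1.42 before.

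Many replication genes are controlled by E2F factors, and the upstream bases are shown for 2 members of the list. Among members with a single promoter entry and an E2F word in this window, these had the largest change between stages. Mcm6 and Mcm5, subunits of the replicative helicase, differed by 0.17 and 0.35 in recovered cells and by −2.10 and −1.91 before. Words searched on both strands were TTTCGCGC, TTTGGCGC, TTTCCCGC and TTTGCCGC, and capitals mark them. The windows are chr13:42404353-42404502 on the minus strand and chr19:13488663-13488812 on the plus strand (RefSeq, GRCr8), each shown 5′ to 3′ on the gene's strand.
Mcm6: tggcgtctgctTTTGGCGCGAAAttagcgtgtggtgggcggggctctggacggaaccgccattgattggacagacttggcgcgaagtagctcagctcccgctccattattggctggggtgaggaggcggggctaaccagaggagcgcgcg
Mcm5: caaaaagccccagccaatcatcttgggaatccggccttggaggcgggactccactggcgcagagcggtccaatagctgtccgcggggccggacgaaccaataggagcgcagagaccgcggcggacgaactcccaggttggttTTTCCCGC
In Mcm6 the capitals hold 2 overlapping matches, 1 on each strand. Of the 40 genes 32 had a single promoter entry and were searched, and 9 of these (28.1%) held a word within 250 bases upstream. Of all rat promoter windows, counted without this limit to single entries, 1.73% held a word. A match describes letters only, and binding was not measured.

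The remaining lists held few or no symbols past the test, beside 1.21% higher and 1.08% lower over all symbols. Of 29 claudins, cadherins and desmosome genes 1 was higher, T-cadherin, Cdh13 (1.05 ± 0.09), and of 21 integrins and laminins Itga5 alone. The imprinted inhibitor Cdkn1c was the 1 of 7 cyclin-dependent kinase inhibitors that was higher (9.30 and 9.28, against 6.97 to 9.36). Of 23 retinoid genes the retinaldehyde dehydrogenase Aldh1a1 was lower (−1.19 ± 0.15), by 2.93 against footpad and 0.14 against vagina. Of 44 keratins 1 was higher and 2 lower, all named above, and of 14 other intermediate filament genes Vim alone was higher. None of 14 stem and matrix genes of the hair follicle, 15 leukocyte, 9 melanocyte, 9 endothelial and 11 muscle genes passed limma's test with the fold, while 5, 0, 2, 1 and 5 of them, in that order, had an unadjusted p under 0.05, against 42.1% of all symbols.

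Several families of housekeeping genes, chosen after their values had been seen, lay lower in recovered oral mucosa cells by less than the fold. Of 37 NADH dehydrogenase subunits 34 had a negative difference and 4 passed the test, Ndufb6, Ndufc2, Ndufs4 and Ndufb11, 10.8% against 1.08% of all symbols. The median subunit was at 8.43 and 8.53 in oral mucosa cells, against 8.95 to 9.27 in the other arrays, and the median difference was −0.49. For 68 mitochondrial ribosomal proteins the median difference was −0.44, with 64 negative and 5 past the test (7.35%). For 76 cytosolic ribosomal proteins it was −0.28, with 68 negative and 2 past the test (2.63%). Before transplantation the medians of these 3 families were −0.01, −0.23 and 0.04. Over all symbols 8412 of 14506 had a positive difference. In recovered cells the subunits of cytochrome c oxidase, ATP synthase and RNA polymerase had median differences of −0.37, −0.24 and −0.32. Before transplantation these medians were −0.02, −0.04 and −0.35, so that RNA polymerase subunits lay lower at both stages. Histones had a median of −0.05 in recovered cells, with 20 of 33 negative and 0 past the test, and of −0.92 before. The symbols lower in recovered oral mucosa cells also had shorter genes, with a median span of 13.8 kb against 30.1 kb for the higher ones and 18 kb for all symbols with a span in RefSeq.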

How the data were processed

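The deposited table holds log2 values that the authors made with RMA in Affymetrix Expression Console from Rat Gene ST arrays (100 ng total RNA, amplified and labeled). The sources used here give no versions, no annotation build and no list of the arrays normalized together. RMA quantile-normalizes the arrays, so levels are relative, and no detection call is given. The table has 20 arrays in 10 groups of 2 and 29215 probe sets, with array medians of 5.31 to 5.55. The number of arrays limits the precision.

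Names came from the annotation of the platform. Of all probe sets, 15310 had 1 symbol, 323 several and 13582 none here. Gene IDs of 15279 were found in RefSeq (GRCr8), which changed 0 symbols. Where a symbol had several probe sets, the one whose mean over all arrays was highest was kept, which left 14506 symbols.

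All groups were fitted together with limma 3.58.1 (lmFit, eBayes, statmod 1.5.0, R 4.3.3) without further terms, on 10 residual degrees of freedom plus 3.64 from the prior. Benjamini-Hochberg adjustment ran over all probe sets. The fit was tested on simulated data. Contrasts were oral mucosa minus the mean of the 4 other tissues in recovered cells and before transplantation, their difference between stages, and oral mucosa against each tissue.

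Named were the 12 symbols per direction with the widest difference and both arrays beyond all others, Vim and Gucy1a2, up to 6 called members per gene list and direction, defining genes, and 8 symbols per direction with the widest stage difference or called at both stages. Genes outside this rule, among them those named for not passing and the family members, were chosen after their values were seen. The comparison and the gene lists were chosen with earlier results of these data known. Lists are described by counts and medians, without set tests.

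Alternatives were the 10 recovered arrays alone, centered arrays, a filter on low probe sets, robust eBayes with trend, the replicate number as a term, adjustment over symbols, no fold, another choice of probe set, and leaving out each tissue or array.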

Additional observations from a re-analysis of the deposited data

Results flagged for a closer look

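The results below are set apart because the contrast of oral mucosa with the 4 other tissues differed between recovered cells and cells before transplantation by a test of the difference itself, the stage term of the limma fit. A positive value means that oral mucosa stood higher against the other tissues in recovered cells than before. In all, 381 symbols passed upward (2.63%) and 519 downward (3.58%). By gene list, 27 replication genes, 25 mitosis genes, 10 genes of the epithelial-mesenchymal transition and 9 fibroblast markers passed upward, and 8 mucosal lining genes downward.

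Vim had the widest change upward, 5.47. Other genes turned from lower before to higher in recovered cells, namely Gstm1 (3.59), Lgals1 (3.45) and Acap1, an Arf GTPase-activating protein (2.98). RT1-Bb (3.30), Il18 (3.18), Igfbp3 (2.96), Zeb1 (2.87), Kcnt1 (2.58), Car2 (2.38) and Fxyd2 (1.88) did not pass the test with the fold before transplantation and were higher in recovered cells. Plod2 (1.92), Mmp3 (1.35), Nell2 (1.10) and Mmp12 (1.00) were higher at both stages and more so in recovered cells.

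Krt4 had the widest change downward, −5.40. Higher before transplantation, it differed from the mean by −1.05 in recovered cells, but by −0.14 without trachea. In recovered cells oral mucosa lay 0.57 above vagina and 0.57 above footpad for Krt4. Serpinb7 (−4.38), Ephx1 (−3.86), Otulinl (−3.37), Ppbp (−3.32) and Ly6d (−3.06) were lower than the mean in recovered oral mucosa cells and higher before. For Ppbp recovered oral mucosa cells still lay above trachea. Tceal9 (−3.60), Pln (−3.07), Sult1b1 (−2.97), Ndufb6 (−1.85) and Aqp9 (−1.68) did not pass the test with the fold before transplantation and were lower in recovered cells. Tspan8 (−2.52), Heph (−2.13) and Rassf9 (−1.21) were lower than the mean at both stages and more so in recovered cells. Before transplantation, however, oral mucosa lay above footpad for Tspan8 and overlapped with esophagus for Rassf9.

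Of these, the stage differences of Mmp12, Nell2, Rassf9 and Mmp3 lost the call in some alternatives. That of Mmp12 was 0.54 without footpad and 0.44 without the second oral mucosa array before transplantation, that of Nell2 0.44, that of Rassf9 −0.73 and that of Mmp3 0.84 without footpad.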

How the results depend on the processing

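All counts of symbols stayed within 1.5 times their main value in every alternative except the one without a fold threshold. Without it, recovered oral mucosa cells had 2188 symbols higher and 2342 lower than the mean of the other tissues, and 429 higher and 596 lower than each of them. The counts were 2537 and 2285 before transplantation and 2083 and 2361 for the stage difference. Leaving out 1 array gave 164 to 186 higher and 154 to 167 lower symbols in recovered cells, 46 to 55 and 34 to 46 against each tissue, 304 to 394 and 230 to 340 before transplantation, and 373 to 459 and 482 to 601 for the stage difference. Leaving out a tissue gave 168 to 203 higher and 150 to 195 lower in recovered cells.

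Some named differences changed sign. Krt13 was −0.63 without vagina, and without footpad Oas1k was 0.13, Il1r2 0.0038 and Il10 0.16, since of the 4 tissues only footpad stood over 2-fold above oral mucosa in these 3 genes. The stage difference of Gucy1a2, not past the test, was 0.0726 without esophagus. Ptprc, close to 0, was −0.0745 with centered arrays, −0.0096 without vagina and −0.16 to 0.20 without 1 array.

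Over 2105 pairs of named gene and alternative, the recovered difference kept its direction and its side of the threshold in 2015, lost the call in 76, gained it in 5 and changed sign in 9. Calls that ended without 1 tissue include Nppb (−0.87) and Fst (−0.62) without vagina, Dusp1 (0.57) and Pdgfc (−0.81) without esophagus, Gstm1 (0.53) and Aldh1a1 (−0.61) without footpad, and Cdkn1c (0.64) and Ptgs2 (−0.69) without trachea. Tnf was 0.78 without the first recovered oral mucosa array. Cd74, Ifi30, Il24, Cdh13, Nrarp and Gpx2, close to the threshold of 2-fold, also lost the call in some alternatives.

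Replicate numbers do not pair the groups. Differences between duplicates correlated across groups with r between −0.409 and 0.399, over 0.1 in 3 of 45 pairs, and the replicate number as a block left the counts at 176 higher and 156 lower in recovered cells, 51 and 39 against each tissue, 329 and 271 before, and 381 and 519 for the stage difference. No detection calls were used, so whether low values, such as those of Tspan8, Heph, Pln, Tceal9, Sult1b1, Serpinb7, Rassf9, Il1r2, Il10 and Aldh1a1 in recovered oral mucosa cells, lie above background was not tested.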
